A study of Mus musculus with 6 samples.

Results

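The proneural and ganglion cell transcription factors are the DNA-binding proteins that turn a dividing retinal progenitor into a neuron, and first of all into a retinal ganglion cell, the neuron whose axons form the optic nerve. The rule named 9 genes, Atoh7, Neurog2, Neurod1, Neurod4, Onecut1, Onecut2, Insm1, Pou4f2 and Isl1, and took every probe set that the platform annotation gave to 1 of these symbols alone. It found 17 probe sets for 8 of the genes, among 45101 probe sets in all. Pou4f2 matched no probe set and was not analysed here.

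The arrays measured mouse optic fissure at E11.5, the ventral groove of the optic cup that closes as the eye forms, cut out of C57BL/6J embryos by laser microdissection. In the 3 FGFR mutant samples the genotype was Six3Cre+;Fgfr1fx/fx;Fgfr2fx/fx, so that Cre, expressed from a Six3 transgene in the early eye field, could delete the loxP-flanked parts of both FGF receptor genes. The 3 control samples were Six3Cre-;Fgfr1fx/fx;Fgfr2fx/fx, with the same floxed alleles and no Cre, so no group carried Cre with intact receptors. Each sample was 1 Affymetrix array, and the title numbers 8711, 9216 and 9266 each named 1 mutant and 1 control array. Nothing in the labels tells if same-group arrays are separate embryos or pools. Whether the spread behind each p-value is between embryos, between pools or technical is therefore not known.

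In the mouse retina neurogenesis starts in the central optic cup and spreads outward. Proneural factors of the basic helix-loop-helix (bHLH) class bind short E-box sequences in DNA, while Notch signalling, through bHLH repressors such as Hes1, holds neighbouring cells as progenitors. In mice Neurog2 marks the front of this wave, Atoh7 makes cells competent to become ganglion cells, Pou4f2 and Isl1 together carry the ganglion cell programme, and Onecut1 and Onecut2 act in the precursors of ganglion, horizontal and other early neurons.

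Among the genes with lower values in the mutants, the bHLH genes Atoh7 and Neurod1 and the LIM homeobox gene Isl1 are shown by the 250 bases before their start sites, since an E-box is where the proneural factors bind. The sequences are from RefSeq (GRCm38.p6), 5′ to 3′ on the strand of the gene, at chr10:63099535-63099784 on the + strand for Atoh7, chr2:79456637-79456886 on the - strand for Neurod1 and chr13:116309689-116309938 on the - strand for Isl1. Capitals mark each E-box, CANNTG, which reads the same on both strands.
Atoh7: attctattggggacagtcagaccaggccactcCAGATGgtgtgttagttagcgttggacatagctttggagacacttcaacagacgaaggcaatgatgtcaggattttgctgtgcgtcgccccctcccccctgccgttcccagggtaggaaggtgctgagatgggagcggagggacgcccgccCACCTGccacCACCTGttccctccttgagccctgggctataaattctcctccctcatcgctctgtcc
Neurod1: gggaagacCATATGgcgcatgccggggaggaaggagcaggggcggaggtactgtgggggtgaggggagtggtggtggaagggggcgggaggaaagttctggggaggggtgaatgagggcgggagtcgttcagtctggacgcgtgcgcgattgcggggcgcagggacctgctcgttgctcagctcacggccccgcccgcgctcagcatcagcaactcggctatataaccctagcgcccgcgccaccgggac
Isl1: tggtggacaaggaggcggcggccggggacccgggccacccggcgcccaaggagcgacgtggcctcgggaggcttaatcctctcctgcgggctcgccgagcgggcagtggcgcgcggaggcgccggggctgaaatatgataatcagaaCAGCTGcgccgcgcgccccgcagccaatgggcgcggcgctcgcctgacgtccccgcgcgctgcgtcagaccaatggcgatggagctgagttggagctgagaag
The Atoh7 window held 3 E-boxes, 1 CAGATG and a pair of CACCTG, the Neurod1 window 1 CATATG and the Isl1 window 1 CAGCTG. Of 32851 RefSeq promoter windows of this length, 66.2% held at least 1 CANNTG, 14.4% held CATCTG or CAGATG (the same site on opposite strands) and 13.0% held CAGCTG. Of the other windows in the table, that of Onecut1 held 2 CANNTG and those of Neurog2, Neurod4 and Pou4f2 held 0. No site of the core ATTGAT, or ATCAAT on the other strand, which Onecut factors bind, was found in the windows of these 7 genes, against 6.72% of all windows. A match is a description of the letters and not of binding, and E-boxes are common at this length.

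The arrays differed in RNA quality. In the mutant 8711 array the ratio of 3 prime to 5 prime signal of the Gapdh control probe sets was 93.6, and no other array exceeded 15.0. The median intensity of that array was 18.1, against 28.7 to 34.6 elsewhere. Over the groups the Gapdh ratio ran from 4.26 to 93.6 in mutants and from 4.93 to 15.0 in controls, and an exact permutation test on the log2 scale, two-sided, gave p = 0.7, where 3 against 3 arrays allow no p under 0.1. In limma, 0 of 27022 probe sets passed an adjusted p of 0.05 (0%), and the smallest adjusted p was 0.356. Without adjustment, 689 were lower and 817 higher at p under 0.05. None of the results below passed adjustment over all probe sets. The brightest probe set of Xist, the RNA that coats the inactive X chromosome in female cells, had 2949.9, 19.5 and 20.4 in mutant arrays 8711, 9216 and 9266, against 1269.6, 4312.8 and 2792.2 in the control arrays. It was thus low in 2 mutant arrays and high in the other 4 arrays. Another Xist probe set was also low in mutant 8711, at 12.9 there against 518.9 to 5732.6 in the controls. The remaining Xist probe set had 45.0, 4.0 and 1.6 in the mutants and 38.4, 564.8 and 99.2 in the controls, with mutant 8711 above control 8711. The Xist probe sets thus differed on mutant 8711. The labels do not give the sex of the embryos, and the part of this imbalance in the results below was not tested.

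Most of the factors had lower values in FGFR mutant optic fissures. Of the 17 probe sets, 15 had lower log2 values in the mutants, against 49.7% of all probe sets, and 2 had higher values. The median log2 difference (mutant minus control) of the 17 was -1.45, against 0.00 over all 45037 probe sets. In 8 probe sets of 5 genes (Neurog2, Neurod1, Onecut2, Insm1 and Isl1) every mutant array was below every control array, against 5.18% of all probe sets. The count of probe sets with all mutants below all controls was 8 without mutant 8711 (background 8.92%) and 8 without control 9266 (background 8.63%). In 1 probe set, of Neurod4, every mutant array was above every control array, against 7.11%, at intensities of no more than 1.1. Probe sets of 1 gene share their target, so the 17 are not 17 independent measurements. Less RNA of a gene per cell and fewer cells that express it cannot be told apart in these samples.

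Most of the factors were dim. The limma test left out any probe set with a mean log2 value under that of an intensity of 15.1, and 11 of the 17 fell under this level, among them all probe sets of Neurog2, Neurod1, Neurod4, Onecut1 and Isl1. In 4 of these 11 every mutant array was below every control array, against 3.37% of all probe sets under the filter. The 6 above it belonged to Atoh7, Onecut2 and Insm1. In the fit without this filter, over all 45037 probe sets, 8 of the 17 had an unadjusted p under 0.05 and a lower value in the mutants, against 2.37% of all probe sets, and 0 had one with a higher value, against 3.12%. Those 8 belonged to Atoh7, Neurog2, Neurod1, Onecut2 and Isl1, and 0 of the 17 passed adjustment. Without mutant 8711 the count was also 8 (background 2.86%), and without control 9266 it was 6 (background 1.31%), with no Atoh7 probe set among them.

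**Figure D1:**
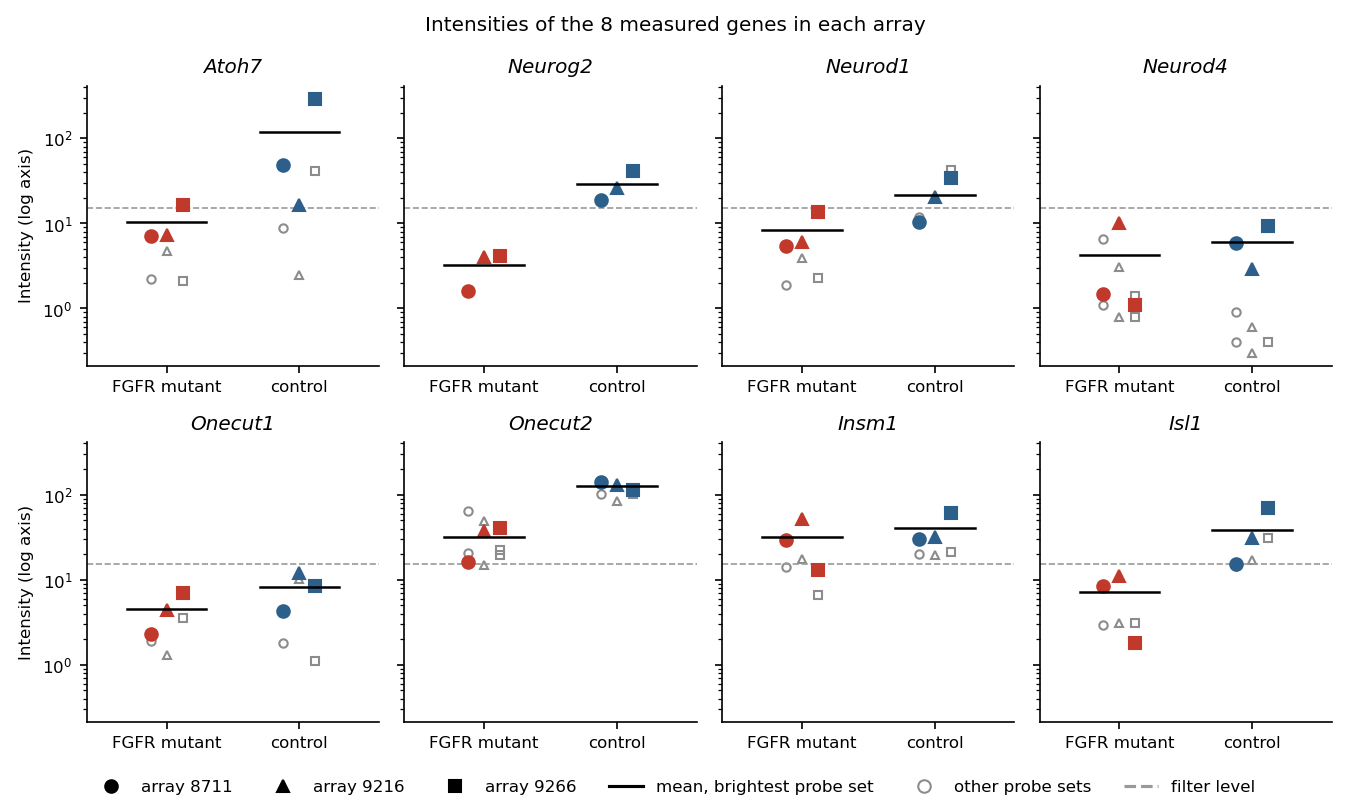
Intensity of the 8 measured genes on a log axis, FGFR mutant arrays at left and control arrays at right in each panel, with the array number given by the marker shape. Filled markers are the gene's probe set with the highest mean log2 value, the black bar is its group mean, open grey markers are its other probe sets, and the dashed line is the filter level of 15.1. The 3 mutant arrays lie below the 3 control arrays in the filled markers of Neurog2, Onecut2 and Isl1, and the groups overlap or meet in the others.

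The first factors of the wave were read in order of their known action. Neurog2, a proneural factor at the neurogenic front, had intensities of 1.6, 4.0 and 4.1 in mutant arrays 8711, 9216 and 9266, against 19.1, 26.2 and 41.5 in control arrays 8711, 9216 and 9266. Its mean was 3.23 ± 1.42 (SD, n = 3) in the mutants and 28.9 ± 11.4 (SD, n = 3) in the controls. All 3 control arrays lay above the filter level of 15.1 and all 3 mutant arrays far under it, with no overlap. The log2 difference was -2.61 (SE 0.52), from -2.86 to -2.33 with 1 array left out, and the limma p without the filter was 8.76e-04 (adjusted p = 0.514). Within the title numbers 8711, 9216 and 9266 the log2 difference of Neurog2 was -2.66, -2.29 and -2.90. The mutant intensities are of the order of the constant added before the logarithm (1.7), and the log2 difference was -1.20 with 16 added in its place.

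Atoh7, which gives progenitors the competence to become ganglion cells, had 7.1, 7.4 and 16.5 in mutant arrays 8711, 9216 and 9266, against 48.7, 16.5 and 293.2 in the control arrays in the same order. Its mean was 10.3 ± 5.34 (SD, n = 3) in the mutants and 119 ± 151 (SD, n = 3) in the controls. The groups met at 16.5, the value of both mutant 9266 and control 9216, and the control arrays themselves spanned 17.8-fold. The log2 difference of -2.51 (SE 0.99, adjusted p = 0.852) was -1.42 without control 9266 and -3.43 without control 9216. A second Atoh7 probe set had 2.2, 4.7 and 2.1 in the mutants and 8.9, 2.5 and 41.6 in the controls, again with control 9266 highest and control 9216 lowest among the controls. Its log2 difference was -1.45, or -0.55 without control 9266 and -0.65 with 16 added in place of 1.7.

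Neurod1 and Neurod4, bHLH factors that act after the first proneural step in differentiating neurons, differed from each other in what could be read. One Neurod1 probe set, 1426413_at, had 1.9, 3.9 and 2.3 in mutant arrays 8711, 9216 and 9266, against 11.9, 20.1 and 42.6 in the control arrays. The mutant arrays lay below the control arrays without overlap, with means of 2.70 ± 1.06 (SD, n = 3) in the mutants and 24.9 ± 15.9 (SD, n = 3) in the controls. The log2 difference of 1426413_at was -2.45 (SE 0.58), with an adjusted limma p of 0.608 in the fit without the filter, and it was -1.06 with 16 added in place of 1.7. The other, 1426412_at, which had the higher mean log2 value of the 2, had 5.5, 6.0 and 13.5 in the mutants and 10.5, 20.7 and 34.4 in the controls. Here mutant 9266 was above control 8711. Its log2 difference was -1.18 (SE 0.57), or -0.60 with 16 added, with a limma p without the filter of 0.0693 (adjusted p = 0.888). Both Neurod1 probe sets were thus lower in the mutants, 1 of them with overlap. The 3 Neurod4 probe sets had no array at or above the filter level, with values from 0.8 to 10.0 in the mutants and from 0.3 to 9.4 in the controls, and log2 differences of -0.63, 0.39 and 0.26. No difference of Neurod4 was detectable at this signal.

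Insm1, a zinc finger factor that promotes the exit of neural progenitors into differentiation, had values in both groups close to each other. Its brighter probe set had 29.5, 52.4 and 13.0 in mutant arrays 8711, 9216 and 9266, against 29.8, 31.5 and 60.9 in the control arrays. The groups overlapped, and the log2 difference of -0.47 (SE 0.56, adjusted p = 0.867) was 0.03 without mutant 9266. The dimmer Insm1 probe set had 14.3, 17.4 and 6.6 in the mutants and 20.2, 19.4 and 21.4 in the controls. Here the groups did not overlap, by a gap of 0.14 on the log2 scale, and the difference was -0.69 (SE 0.41, adjusted p = 0.852).

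Onecut2, a cut-homeodomain factor of early retinal precursors, was above the filter level in every control array in each of its 3 probe sets. Probe set 1440005_at had 16.2, 37.4 and 40.7 in mutant arrays 8711, 9216 and 9266, against 141.3, 130.5 and 112.5 in the control arrays. Probe set 1444980_at had 20.5, 48.6 and 19.4 in the mutants and 137.1, 128.4 and 113.7 in the controls. Probe set 1460044_at had 63.9, 14.9 and 22.5 in the mutants and 100.9, 85.2 and 101.4 in the controls. In all 3 the highest mutant array was below the lowest control array, and the controls differed by no more than 1.26-fold while the mutants spread more widely. Which mutant array was lowest differed between the probe sets, being 8711, 9266 and 9216 in this order. The log2 differences of the 3 Onecut2 probe sets were -2.06 (SE 0.40), -2.16 (SE 0.40) and -1.71 (SE 0.52), with limma p of 0.00135, 0.00112 and 0.0139 and adjusted p of 0.458, 0.435 and 0.716. Leaving out mutant 8711, the array with the high Gapdh ratio, gave -1.67, -1.97 and -2.28 in the same order. The adjusted limma p were then 0.150, 0.172 and 0.130. The differences of 1440005_at and 1444980_at thus became smaller and that of 1460044_at larger. Onecut1, its close relative, was under the filter level in every array, with brighter probe set values of 2.3, 4.4 and 6.9 in the mutants and 4.3, 12.1 and 8.4 in the controls. The groups of Onecut1 overlapped, with log2 differences of -0.66 and -0.36.

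Isl1, a LIM homeodomain factor that works with Pou4f2 in newborn ganglion cells, was lower in both of its probe sets. Probe set 1450723_at had 8.5, 11.2 and 1.8 in mutant arrays 8711, 9216 and 9266, against 15.1, 30.7 and 69.8 in the control arrays. Probe set 1422720_at had 2.9, 3.1 and 3.1 in the mutants, against 14.4, 17.1 and 30.8 in the controls. Neither probe set had an overlap, and control 9266 was the highest array in both. The log2 differences of Isl1 were -2.13 (SE 0.70) and -2.18 (SE 0.50), with limma p of 0.0153 and 0.00227 without the filter and adjusted p of 0.770 and 0.606. With 1 array left out they ran from -2.64 to -1.56 and from -2.38 to -1.88, and with 16 added in place of 1.7 they were -1.13 and -0.92. Isl1 is also known from neurons of cranial sensory ganglia and from some mesenchyme, so it alone does not name a cell.

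**Figure D2:**
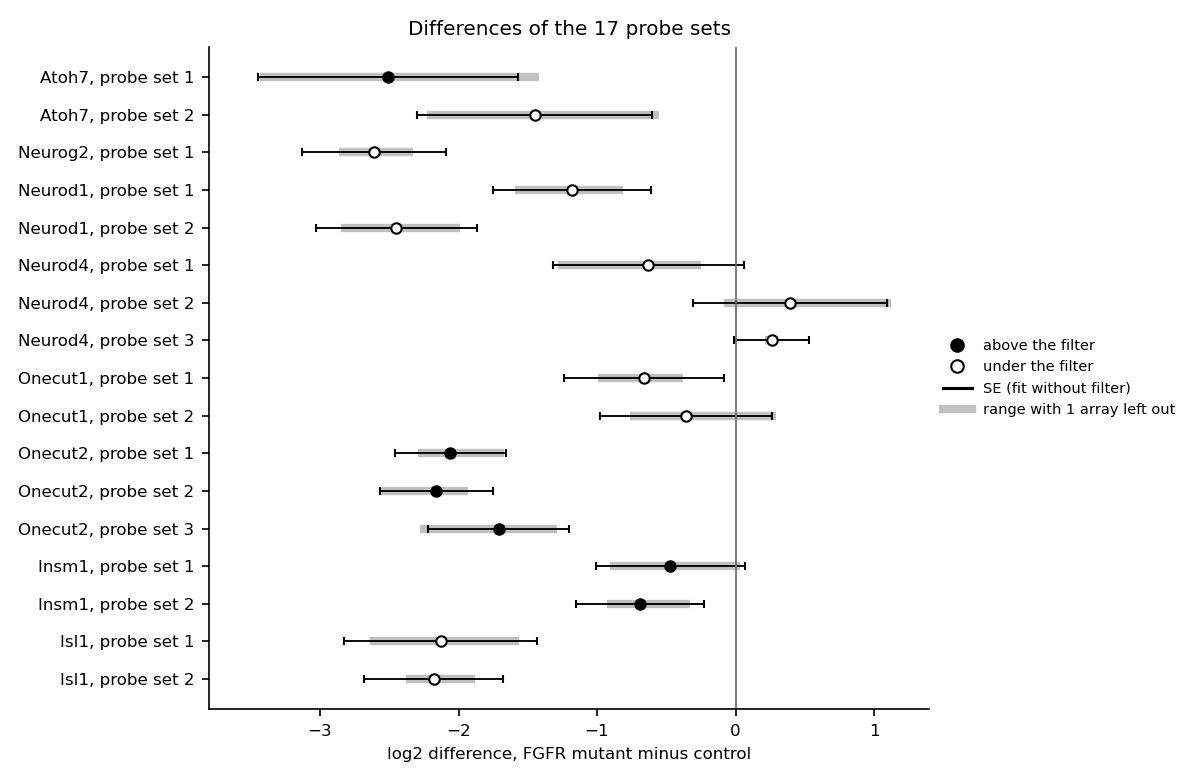
Log2 difference (FGFR mutant minus control) of each of the 17 probe sets, numbered within a gene from the highest mean log2 value, with SE from the fit without the filter as error bars and the range over leaving out 1 array as grey bars. Filled points are above the filter and open points under it. The grey bars of all Onecut2, Isl1, Neurog2, Neurod1 and Atoh7 probe sets stay below 0, while a probe set each of Neurod4, Onecut1 and Insm1 crosses it.

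The arrays of a group were not alike in these factors. Taking the probe set with the highest mean log2 value for each of the 8 genes, the mean log2 value relative to the control mean was -1.87, -1.16 and -1.56 in mutant arrays 8711, 9216 and 9266, against -0.44, -0.28 and 0.72 in control arrays 8711, 9216 and 9266. Control 9266 was the highest control array in 6 of the 8 genes, and in 12 of the 17 probe sets. All 8 genes were below the control mean in mutants 8711 and 9266 and 6 of 8 in mutant 9216, where Neurod4 and Insm1 were above it. Among the 28 pairs of these genes the Pearson correlation of log2 values over the 6 arrays was above 0 in every pair, from 0.02 (Onecut1 and Insm1) through a median of 0.64 to 0.94 (Neurog2 and Onecut2). These correlations are descriptive, since the genes were read on the same 6 arrays and share the 2 groups.

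**Figure D3:**
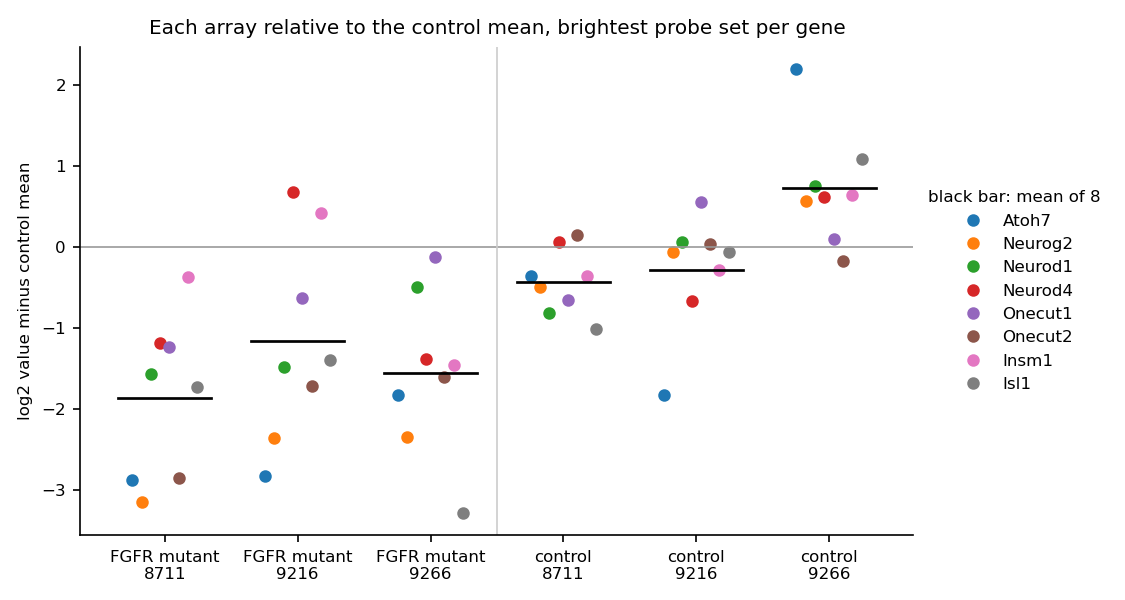
Log2 value of the 8 genes in each array minus the mean of the control arrays, 1 coloured point per gene, with the black bar at the mean of the 8. The bars lie from -1.87 to -1.16 in the 3 FGFR mutant arrays and from -0.44 to 0.72 in the 3 control arrays, where control 9266 is highest.

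The genes whose pattern over the 6 arrays was most like that of Atoh7, among 12280 genes, were E4f1 (r = 0.989), Madd (0.986), Rasa3 (0.983), Chka (0.983) and Slc39a7 (0.982). E4f1 had 58.7, 69.6 and 82.4 in mutant arrays 8711, 9216 and 9266, against 114.1, 83.9 and 180.0 in the control arrays, following the order of the Atoh7 controls with 9266 highest and 9216 lowest. Those most like Onecut2 were Six6 (r = 0.992), Flrt1 (0.991), Pcdh7 (0.990), Kcna5 (0.990) and Zfp362 (0.986). Six6, an optic cup homeobox factor, had 432.7, 657.1 and 713.9 in the mutants, against 1289.4, 1207.5 and 1307.0 in the controls, and Flrt1, a membrane protein of the FLRT family, had 21.8, 48.6 and 41.4 in the mutants, against 190.0, 148.5 and 125.8 in the controls. In both, as in Onecut2 probe set 1440005_at, on which the correlation was taken, the mutant and control arrays did not overlap and mutant 8711 was the lowest array. These are the highest of 12280 correlations over 6 arrays that share 1 scaling and the 2 groups, and no test was made.

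Other genes of the neurogenic pathway had smaller median differences. Of 20 genes of neurogenic precursors, such as Notch ligands and the Sox factors of new neurons, 15 were bright enough to test. Of these, 12 had lower values in the mutants, against 46.4% of all genes tested, and 3 had higher ones. The 3 higher were Sox4, Cbfa2t3 and Dll3, with log2 differences of 0.14 (SE 0.20), 0.08 (SE 0.42) and 0.07 (SE 0.35) and overlapping groups. The median log2 difference of the 15 was -0.29, against 0.03 over all 12282 genes tested. In 3 of the 15 (Sox11, Dll1 and Btg2) every mutant array was below every control array, against 5.43% of all genes. Of the 15, 1, Sox11, had an unadjusted limma p under 0.05 with a lower value, against 2.52%. Sox11, a factor of newborn neurons, had 785.7, 1599.0 and 1326.9 in mutant arrays 8711, 9216 and 9266, against 1929.2, 2022.4 and 2231.2 in the control arrays. Its log2 difference was -0.79 (SE 0.27, adjusted p = 0.819), or -0.50 without mutant 8711. Dll1, the Notch ligand of committed precursors, had 42.4, 34.9 and 33.4 in the mutants and 54.6, 46.8 and 58.3 in the controls. Mfng, a modifier of Notch receptors, and Rcor2, a corepressor, had log2 differences of -1.63 (SE 0.87) and -1.44 (SE 0.75), with overlapping groups, and Mfng was at -0.67 without mutant 8711.

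Among 20 further transcription factor genes of ganglion cells and their relatives, 10 were tested, 6 lower, against 46.4% of all genes tested, and 4 higher. Of these 0 had an unadjusted limma p under 0.05, against 2.52% of all genes lower and 4.40% higher. Their median log2 difference was -0.03. Without mutant 8711 this median was 0.31. Pou4f1, a POU factor of ganglion cells and sensory neurons and a relative of Pou4f2, had 7.3, 24.9 and 25.3 in the mutants, against 24.4, 40.9 and 52.7 in the controls, a log2 difference of -1.08 (SE 0.55, adjusted p = 0.852), or -0.55 without mutant 8711. Ebf3 and Irx2, both also known outside the retina, had log2 differences of 0.58 (SE 0.36) and 0.73 (SE 0.43), without overlap in Ebf3. Of 12 other proneural bHLH genes, among them Neurog1, Atoh1 and Ptf1a, 10 matched a probe set of 1 symbol and 0 passed the filter. Their summed intensity was 57.0 to 90.9 in the mutants and 37.2 to 52.5 in the controls.

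The genes that neurons use once they differentiate were lower in some cases and higher in others. Of 27 such genes 17 were tested, 11 lower, against 46.4% of all genes tested, and 6 higher, with a median log2 difference of -0.25. In 4 (Stmn3, Elavl4, Rtn1 and Crmp1) every mutant array was below every control array, against 5.43% of all genes. At an unadjusted limma p under 0.05, 1 was lower and 1 higher, against 2.52% and 4.40% of all genes. Tubb3, the neuronal tubulin, had 22.6, 9.7 and 19.3 in mutant arrays 8711, 9216 and 9266, against 62.2, 18.6 and 63.0 in the control arrays, with overlapping groups and a log2 difference of -1.28 (SE 0.57). Crmp1, a cytosolic protein of growing axons, had a log2 difference of -0.69 (SE 0.24, adjusted p = 0.836). Rbpms, an RNA-binding protein that marks ganglion cells in the mature retina and is also known from smooth muscle and heart, went the other way. It had 208.6, 165.0 and 177.8 in the mutants, against 65.9, 67.8 and 51.4 in the controls, a log2 difference of 1.55 (SE 0.26, adjusted p = 0.373), while Stmn2, Dcx and Nefm were under the filter.

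The bHLH inhibitors, the Hes, Hey and Id genes that oppose proneural factors, were split in direction. Of 9 genes 8 were tested, 4 lower, against 46.4% of all genes tested, and 4 higher. In 1 (Id1) every mutant array was below every control array, against 5.43% of all genes. In 3 (Hey1, Hey2 and Id2) every mutant array was above every control array, against 9.44%. At an unadjusted limma p under 0.05, 2 were lower and 2 higher, against 2.52% and 4.40% of all genes. The 2 lower were Id1 and Hes1. Id1 had a log2 difference of -1.21 (SE 0.41, adjusted p = 0.784). Hes1 was at -0.81 (SE 0.32, adjusted p = 0.852), with overlapping groups. The 2 higher were Hey2 and Id2. Hey2 had 39.2, 46.9 and 74.1 in mutant arrays 8711, 9216 and 9266, against 18.8, 24.5 and 23.3 in the control arrays, a log2 difference of 1.16 (SE 0.35, adjusted p = 0.709). Id2, an inhibitor without a DNA-binding region, had 1985.9, 1916.3 and 1937.0 in the mutants, against 1350.6, 1612.0 and 1164.7 in the controls, a log2 difference of 0.51 (SE 0.17, adjusted p = 0.778).

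Markers of the tissues around these neurons had values that differed between the groups too. Of 15 retina progenitor genes 14 were tested, 11 lower, against 46.4% of all genes tested, and 3 higher. The median log2 difference of these genes was -1.03 (-0.70 without mutant 8711). Their summed intensity was 10040 to 11688 in the mutants, against 14764 to 15530 in the controls. Fgf15, an FGF made by retinal progenitors, was at -1.74 (SE 0.27) and Six6 at -1.11 (SE 0.23). In 7 of the 14 every mutant array was below every control array, against 5.43% of all genes. In 1, Pax6, every mutant array was above every control array, against 9.44%. Pax6 was at 0.51 (SE 0.16) and was chosen after its values were seen. All 10 pigment epithelium genes were higher in the mutants and 0 lower, where 46.4% of all genes tested were lower. In 9 of the 10 every mutant array was above every control array, against 9.44%. Their median was 1.10, and their summed intensity was 23846 to 38399 in the mutants and 14790 to 17046 in the controls. Tfec was at 1.33 (SE 0.21) and Rab38 at 1.25 (SE 0.18). All 10 tested periocular mesenchyme genes were higher and 0 lower, where 46.4% of all genes tested were lower. In 3 of the 10 every mutant array was above every control array, against 9.44%. The median of these genes was 0.74 (0.15 without control 9216), with sums of 2069 to 2403 in the mutants and 819.5 to 1752 in the controls. Twist1 was at 1.73 (SE 0.42) and Prrx1 at 1.0 (SE 0.28). Sensory ganglion genes summed to 29.3 to 115.6 in the mutants and 94.5 to 116.0 in the controls, with 2 of 10 tested, Pou4f1 and Isl2. Isl2 was at -0.43 (SE 0.63) with overlapping groups, and at 0.28 without mutant 8711. Lens genes summed to 1433 to 2665 in the mutants and 1869 to 2616 in the controls, with a median of -0.45 over 6 genes, from -0.76 without mutant 9266 to -0.26 without mutant 9216. Among them Cryaa was at -1.73 (SE 0.89), with mutant 9266 above every control array, and Maf at -0.45 (SE 0.27), both with overlapping groups. No matched marker was listed at 0 in any array. In limma, 0 of the genes in these lists passed adjustment, and their part in the values of the neurogenic factors was not tested.

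**Figure D4:**
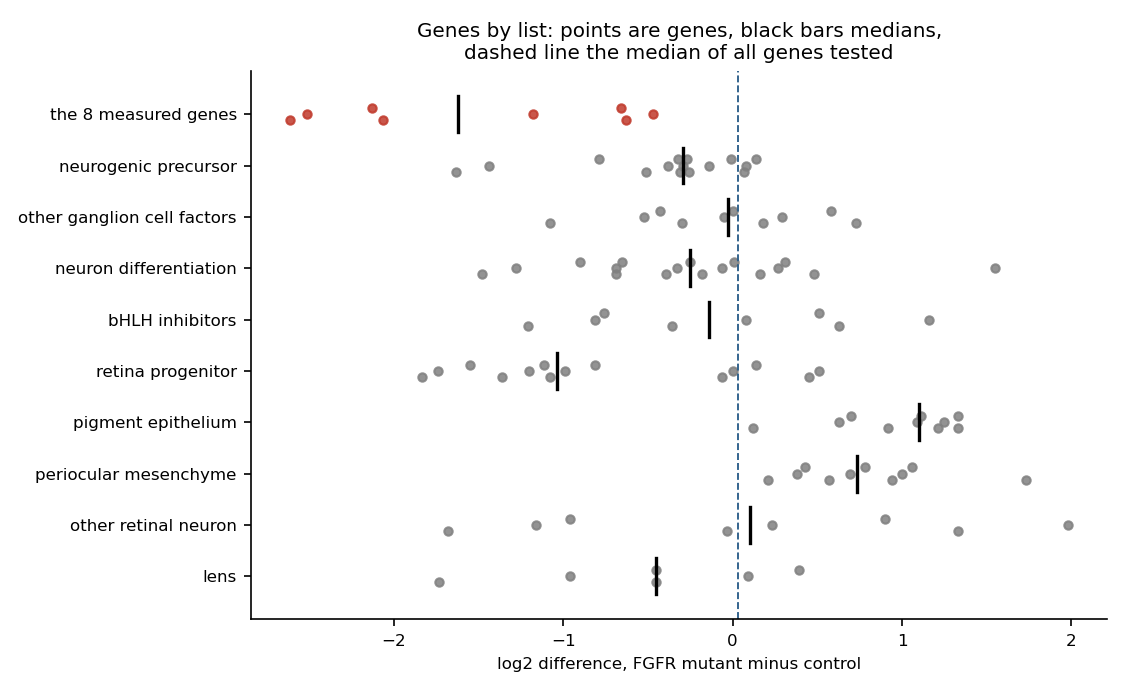
Log2 differences (FGFR mutant minus control) by gene list, 1 point per gene at its brightest probe set, with medians as black bars and the median of all genes tested (0.03) as a dashed line. The 8 measured genes are shown whether or not they passed the filter, the lists only with genes that did. The medians were -0.29 for neurogenic precursor and -0.25 for neuron differentiation genes, and the 8 genes had a median of -1.62.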

How the data were processed

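The series holds 6 arrays of microdissected optic fissure, 3 FGFR mutant and 3 control, grouped by their titles. MAS5 is named in the submitters' processing notes, and its version is not given in the sources used here. As deposited, the values are linear intensities, 1 per probe set and array, which the authors had scaled: their 2% trimmed mean was 150 in every array. They were used without further normalization, which assumes that most transcripts keep their level. Detection calls were not used here. With 3 arrays per group, their number limits the precision.

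Of 45101 probe sets, 64 manufacturer controls were left out. Of the others 34945 had 1 gene symbol, 932 several and 9160 none. Values were transformed as log2(intensity + 1.7), the 10th percentile of all values, which understates the change of dim genes. Probe sets with a mean log2 value under the 40th percentile (4.07) were left out, leaving 27022. Groups were compared with limma 3.58.1 (lmFit, eBayes with trend and robust, statmod 1.5.0) in R 4.3.3 with Benjamini-Hochberg adjustment over all probe sets kept, at a threshold of 0.05. Values for probe sets under the filter come from the same fit over all 45037. A gene was read at the probe set with the highest mean log2 value. In 1 simulated data set each probe set was drawn with its own SD from these arrays, and 200 of 27022 probe sets were changed. There the fit recovered 1% of log2 changes of 1 and 12% of log2 changes of 2. Few single genes passed in that simulation, and the recovery in the real data was not measured. Python 3.11.15 with matplotlib 3.10.9 made the figures.

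The members, the lists and the rule for named genes were chosen with earlier results of these data known. The rule named all 9 members, the 2 or 3 genes of each list with the smallest limma p, and the 5 genes most like Atoh7 and Onecut2. Other genes named beside a count were chosen after their values were seen. The title numbers were checked as pairs by correlating the arrays' deviations from their group means. For same-numbered arrays this was 0.05, 0.48 and -0.11 for 8711, 9216 and 9266. Between unlike numbers it ran from -0.45 to 0.35. With so few arrays per group the deviations depend on each other, so these values cannot settle if the numbers pair the samples. The main fit took no pairing, and a fit with the number as a block is given below. Alternatives were other added constants, normalizations, filters and variance models, a block, leaving out arrays, and averaging the probe sets of a gene.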

Additional observations from a re-analysis of the deposited data

How the results depend on the processing

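The count of probe sets passing an adjusted p of 0.05 in limma was 0 with the settings of the report. It was 1 without mutant 8711 and 1 with both 8711 arrays left out, each time Xist (log2 difference -6.84 and -7.33), whose values by array are given above and which lies outside the rule for named genes, and it ran from 0 to 1 over the arrays left out. No setting called a member: the smallest adjusted p of a member was 0.435 (Onecut2), from 0.130 without mutant 8711 to 0.999 without control 8711, and 0.249 with quantile normalization. With the title number as a replicate block 0 probe sets passed, and the smallest adjusted p of a member was 0.765. The number of member probe sets with all mutants below all controls was 8, from 8 to 11 with 1 array left out, 7 with quantile normalization and 7 with median centring. Over all probe sets the share was 5.18% with all 6 arrays, 8.92% without mutant 8711 and 8.63% without control 9266. It was not computed for the other settings, so their counts cannot be read as a stronger or weaker result. Chosen after seeing the data, the count at an unadjusted p under 0.05 without the filter ran from 6 to 8 when control 9266 or mutant 8711 was left out. Directions turned in 3 dim or overlapping probe sets: Neurod4 1436694_s_at (0.39 in the report, -0.25 with both 8711 arrays left out, and from -0.08 without control 9216 to 1.12 without control 9266), Onecut1 1421447_at (-0.36 in the report, from -0.76 without control 9266 to 0.29 without control 9216) and Insm1 1455865_at (-0.47 in the report, from -0.91 without mutant 9216 to 0.03 without mutant 9266). No other member probe set turned under any setting run. Median centring moved the median of all genes to 0.14 and quantile normalization to 0.07, against 0.03. The cause of these moves was not tested.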

Other observations

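Genes of other early retinal neurons, those of photoreceptor, amacrine and horizontal precursors, went both ways. Of 12 such genes 8 were tested, 4 lower, against 46.4% of all genes tested, and 4 higher, with a median log2 difference of 0.10. This median was -0.05 without control 9266, 0.29 without control 8711 and 1.12 with the filter at the 60th percentile. Rxrg, a retinoid receptor of cone precursors, had 203.2, 385.2 and 515.4 in mutant arrays 8711, 9216 and 9266, against 129.5, 70.8 and 67.9 in the control arrays, a log2 difference of 1.98 (SE 0.43) with an adjusted limma p of 0.506. Otx2, a homeobox factor of both pigment epithelium and photoreceptor precursors, had 2077.4, 3961.2 and 6149.6 in the mutants, against 1650.0, 1479.4 and 1305.7 in the controls, a log2 difference of 1.33 (SE 0.38, adjusted p = 0.684). Every mutant array was above every control array in both genes, against 9.44% of all genes tested, and Otx2 is also in the pigment epithelium list. Crx, a homeobox factor of photoreceptor precursors, lay the other way, with 76.2, 44.2 and 18.5 in the mutants, against 161.9, 120.6 and 118.2 in the controls, a log2 difference of -1.68 (SE 0.51, adjusted p = 0.709). Foxn4, a factor of amacrine and horizontal precursors, had 19.1, 33.2 and 34.3 in the mutants, against 43.0, 67.5 and 92.8 in the controls, a log2 difference of -1.16 (SE 0.41, adjusted p = 0.836). Every mutant array was below every control array in Crx and Foxn4, against 5.43% of all genes tested. Crx and Foxn4 were chosen after their values were seen.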
